A study of Mus musculus with 12 samples.

Results

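Chd8 and its relatives form the chromodomain helicase DNA-binding (CHD) family of chromatin remodelers, and the level of every member was examined in neocortex of mice that carry 1 or 2 intact Chd8 alleles. The 10 members were found by gene symbol among 46603 Ensembl genes in the deposited counts, of which 46005 had a symbol: Chd1, Chd2, Chd3, Chd4, Chd5, Chd6, Chd7, Chd8, Chd9 and Chd1l. RNA was sequenced from microdissected cortex of C57Bl/6J mice at embryonic day 12.5 (E12.5, both hemispheres) and postnatal day 5 (P5, 1 hemisphere). Each stage held 3 Chd8+/+ libraries, the wild-type controls, and 3 Chd8+/- libraries, 12 in all. The Chd8+/- line came from a conditional allele built by gene targeting of C57BL/6 ES cells, of which 2 clones were injected. Exon 3 was then deleted in all tissues with β-actinCre, and the Cre transgene was removed by crossing to C57BL/6J. The comparisons below ask how far Chd8 RNA falls when 1 allele is lost, whether any of the 9 paralogs changes with it, and how the family changes between the stages.

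CHD proteins share paired chromodomains, which in several members bind methylated histone tails, and a helicase-like ATPase motor that slides, ejects or spaces nucleosomes. CHD1 and CHD2 (subfamily I) act mainly on transcribed chromatin, CHD3, CHD4 and CHD5 (subfamily II) are alternative ATPases of the nucleosome remodeling and deacetylase (NuRD) complex, and CHD6, CHD7, CHD8 and CHD9 (subfamily III) carry C-terminal BRK domains. CHD1L, a relative that lacks chromodomains, binds poly(ADP-ribose) through a macrodomain and acts in DNA repair. Loss of 1 copy of CHD8 is associated with autism and macrocephaly in people, loss of 1 copy of CHD7 causes CHARGE syndrome, and mutations of CHD2 cause epilepsy.

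Chd8 (ENSMUSG00000053754) lies on the minus strand of chromosome 14 (GRCm38, chr14:52198151-52257723). The deleted exon 3 spans chr14:52232545-52232930 in the 37-exon, 8190-base coding transcript used here and has 386 bases, which leaves a remainder of 2 after division by 3. It makes up 4.71% of that transcript and 2.40% of the 16097 exon bases over which reads were counted. A transcript without exon 3 would therefore still be counted under Chd8, and the counts do not separate the alleles. The transcript sequences around the deletion, from GENCODE M21, are shown because they define the mutant allele. In the first pair, capitals mark bases of exon 3, and in the last, where exon 2 is joined directly to exon 4, capitals mark the first in-frame stop codon, which is reached after 36 bases (12 codons) of exon 4.
Exon 2 to exon 3: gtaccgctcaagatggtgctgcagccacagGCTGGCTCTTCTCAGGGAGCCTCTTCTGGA
Exon 3 to exon 4: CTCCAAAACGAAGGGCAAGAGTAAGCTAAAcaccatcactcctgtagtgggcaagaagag
Exon 2 joined to exon 4: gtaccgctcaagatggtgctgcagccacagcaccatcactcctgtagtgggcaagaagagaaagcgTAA

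Between 38774591 and 54695236 reads were counted per library. The summed markers of neocortical identity (Emx1, Emx2, Lhx2) were present in every library, at 500.5 to 635.7 CPM (counts scaled to a common library size) at E12.5 and 108 to 127.5 at P5. No source states that the 3 libraries of a group came from separate litters, so p-values measure the spread between these libraries. In whole cortex, fewer cells that express a gene and less RNA of it per cell cannot be told apart.

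Chd8 RNA was lower in Chd8+/- neocortex at both stages. At E12.5, Chd8 stood at 236, 233 and 238 CPM in the Chd8+/+ libraries and at 164, 169 and 164 CPM in the Chd8+/- libraries. At P5, it stood at 148, 148 and 143 CPM in Chd8+/+ and at 95.2, 97.7 and 94.1 CPM in Chd8+/-. The groups did not overlap at either stage, and the SD within a group was 1.82 to 3.10 CPM. Chd8+/- neocortex thus held 70.3% of the Chd8+/+ level at E12.5 (95% interval 66.1 to 74.8%; log2 fold change -0.51 ± 0.04 SE, edgeR adjusted p = 0.00562) and 65.5% at P5 (62.1 to 69.0%; -0.61 ± 0.03, adjusted p = 7.21e-05). Both intervals lay above 50%, the share of 1 allele of 2, but the counts include any transcript that lacks exon 3. They are therefore no measure of the intact transcript alone. Only Chd8 passed the test (adjusted p under 0.05) at either stage, which is 0.00553% of 18081 genes tested at E12.5 and 0.00536% of 18666 at P5. The size of the E12.5 difference varied little when single libraries were left out (log2 -0.52 to -0.50), but the call depended on 3 libraries. The adjusted p was 0.141 when the Chd8+/+ library of replicate 3 was dropped, and it was 0.124 and 0.122 when the Chd8+/- library of replicate 1 or of replicate 3 was. At P5 the adjusted p stayed at or below 0.00313 in each such fit.

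The paralogs lie on other chromosomes of GRCm38 than Chd8, and only Chd5 and Chd7 share one. Subfamily I comprises Chd1 (ENSMUSG00000023852, chr17:15704967-15772610) and Chd2 (ENSMUSG00000078671, chr7:73426638-73541830). Subfamily II comprises Chd3 (ENSMUSG00000018474, chr11:69343273-69369406), Chd4 (ENSMUSG00000063870, chr6:125095981-125130591) and Chd5 (ENSMUSG00000005045, chr4:152338651-152390194). Besides Chd8, subfamily III comprises Chd6 (ENSMUSG00000057133, chr2:160946978-161109075), Chd7 (ENSMUSG00000041235, chr4:8690406-8867659) and Chd9 (ENSMUSG00000056608, chr8:90828835-91054508). Chd1l (ENSMUSG00000028089) lies at chr3:97560742-97610203. In both count tables the intervals listed for each gene are its exons.

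Chd8 overlaps the opposite-strand gene Gm26590, with 824 shared exon bases (5.12% of its exon length), and the small nucleolar RNA gene Snord8. They held 100 and 86 counts over the 12 libraries, against 3994 to 12115 for Chd8 in each library. Among the other members, Chd2 shared 15.6% of its exon bases with the same-strand model ENSMUSG00000098496, which held 1962 counts over the 12 libraries. The counting command recorded for P5 sets no strand option, so reads from overlapping genes on opposite strands could not be separated by strand there.

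To compare levels between genes, counts were scaled by exon length and library total to TPM. In Chd8+/+ neocortex at E12.5, the NuRD ATPase genes Chd4 and Chd3 led the family, at 308 ± 25.8 and 220 ± 9.70 TPM (SD, n = 3). Chd1 (56.3 ± 3.89), Chd7 (55.9 ± 6.44) and Chd8 (48.9 ± 1.71 TPM) followed. Neighbours among these last 3 overlapped between libraries, and so did Chd2 (37.6 ± 2.99) and Chd6 (36.1 ± 1.62 TPM). Chd9, Chd1l and Chd5 stood lowest, at 32.7 ± 0.904, 17.5 ± 1.77 and 13.1 ± 2.08 TPM, each below the preceding gene in all libraries. At P5 the order in Chd8+/+ was Chd3 (366 ± 6.91), Chd5 (134 ± 6.79), Chd4 (91.6 ± 2.15), Chd8 (30.7 ± 0.480), Chd9 (21.4 ± 0.722), Chd2 (18.2 ± 0.611), Chd6 (18.1 ± 0.496), Chd1 (12.4 ± 0.202), Chd7 (6.40 ± 0.170) and Chd1l (6.10 ± 0.365 TPM). Chd2 and Chd6 overlapped there, as did Chd7 and Chd1l, and all other neighbours were separate. The place of Chd8 at E12.5 depends on the length used. With the longest protein-coding transcript (8509 bases) in place of the merged exons, a choice made after the data were seen, Chd8 reached 73.8 ± 2.52 TPM at E12.5 and stood next below Chd3, above Chd7, while at P5 it stayed next below Chd4, with 47.5 ± 0.715 TPM.

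**Figure D1:**
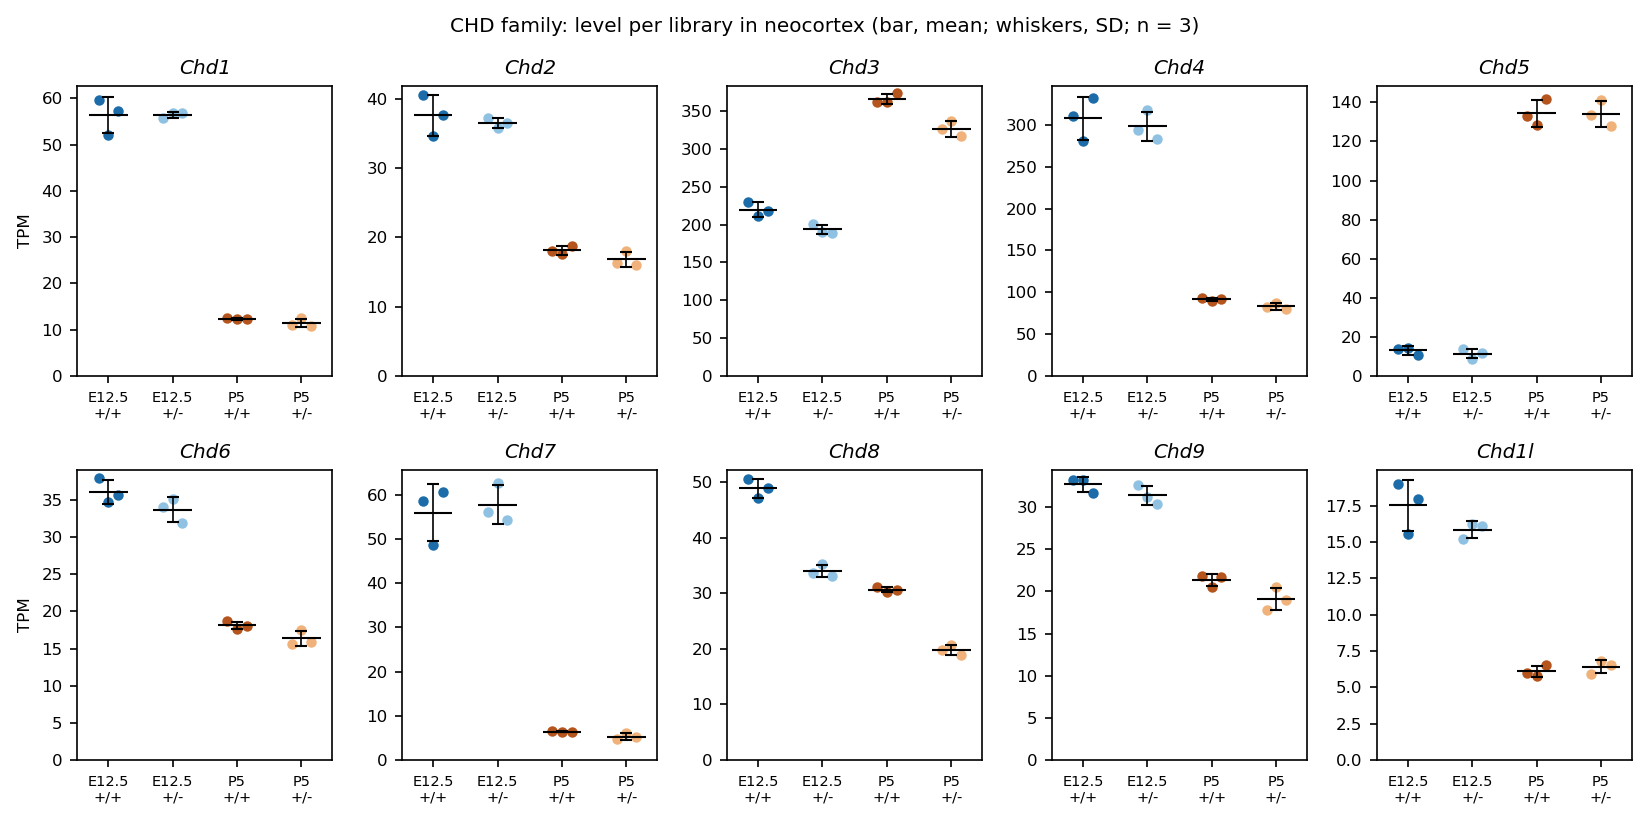
Level of each CHD family gene in TPM (vertical axes, each from 0) in every library, by stage and genotype; points are libraries, horizontal bars means and whiskers SD (n = 3). Chd8 is separated by genotype at both stages, and for each of the 9 paralogs the means lie farther apart between stages than between genotypes.

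No paralog passed the test between genotypes at E12.5. Of the 9 paralogs, 7 had a fitted value below 0, beside 49.8% of all genes, and 2 above, with a median log2 difference of -0.05 beside 0.00058 over all genes tested. Chd3, which encodes a NuRD ATPase, was the 1 paralog with an unadjusted p under 0.05, a level that 5.15% of all genes reached. It stood at 564, 549 and 554 CPM in Chd8+/+ and at 514, 480 and 490 CPM in Chd8+/-. All Chd8+/- libraries lay below all Chd8+/+ libraries, and the fitted level was 89.0% of Chd8+/+ (82.3 to 96.3%; log2 -0.17 ± 0.05, unadjusted p = 0.00829, edgeR adjusted p = 0.942). Chd6 was the only other paralog whose groups were separate (210, 204 and 205 CPM against 197, 200 and 187), at 94.3% (88.1 to 100.9%). Separate groups with lower values in Chd8+/- were found for 5.90% of all genes. DESeq2, which called 0.0373% of the genes it tested, called 0 paralogs as well.

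The nearest relatives of Chd8 at E12.5 showed no value above the controls that passed the test. Chd7, which acts in neural crest and neural progenitors, was measured at 234, 206 and 252 CPM in Chd8+/+ and at 235, 258 and 230 CPM in Chd8+/-. These ranges overlapped, and the fitted level of 104% had an interval of 92.6 to 117.5%. Without Chd8+/+ replicate 2 the Chd7 value changed sign to a log2 difference of -0.014. Chd9 was at 96.9% (90.3 to 103.9%). In subfamily I, Chd1 was at 101% (94.7 to 108.4%) and Chd2 at 98.0% (91.1 to 105.5%). Chd4 was at 97.8% (88.0 to 108.7%), and Chd1l at 91.4% (81.9 to 102.0%). Chd5 had the widest interval, 68.8 to 112.5% around 88.0%, with libraries between 31.0 and 42.9 CPM in Chd8+/+ and between 25.5 and 39.5 CPM in Chd8+/-. Its log2 difference of -0.18 was between -0.33 (without Chd8+/- replicate 1) and -0.026 (without Chd8+/- replicate 2) when single libraries were left out. Chd1, Chd2 and Chd4 also changed sign without 1 of the Chd8+/+ libraries. Over the 9 paralogs, the highest upper bound was therefore that of Chd7.

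At P5, again 0 of 9 paralogs passed edgeR's test. The fitted value was below 0 for 7 paralogs, beside 49.6% of all genes, and above 0 for Chd5 and Chd1l, with a median log2 difference of -0.12 beside 0.0017 over all genes. Unadjusted p-values under 0.05 were found for 5 paralogs, Chd3, Chd4, Chd6, Chd7 and Chd9, all lower, beside 9.77% of all genes that were lower at this level. The groups were separate, and lower in Chd8+/-, for these 5 and for Chd2, whose nearest libraries both rounded to 68.9 CPM. This held for 12.2% of all genes.

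In subfamily II at P5, Chd3 stood at 899, 929 and 916 CPM in Chd8+/+ and at 824, 835 and 831 CPM in Chd8+/-. Chd4, the main NuRD ATPase gene of proliferating cells, stood at 221, 218 and 213 CPM in Chd8+/+ and at 197, 206 and 198 CPM in Chd8+/-. Both genes were thus lower in every Chd8+/- library, at 90.8% (86.4 to 95.4%; log2 -0.14 ± 0.03, adjusted p = 0.110) and 92.2% (87.2 to 97.5%; -0.12 ± 0.04, adjusted p = 0.153). DESeq2, which called 5.22% of the genes it tested, called Chd3 (adjusted p = 0.00491) and no other paralog. With all genes of at least 1 count in the fit, edgeR called Chd3 (adjusted p = 0.0410) and Chd7 (0.0298), among 3.18% of genes called. For Chd5, the NuRD ATPase gene of neurons, the libraries overlapped, at 376, 374 and 394 CPM against 383, 396 and 381 CPM, and the level was 101% (95.7 to 107.5%).

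In subfamily III at P5, Chd7 stood at 26.7, 26.8 and 25.0 CPM in Chd8+/+ and at 19.5, 24.6 and 22.1 CPM in Chd8+/-. All Chd8+/- libraries were lower, with replicate 1 the farthest, and the fitted level of 84.3% (74.7 to 95.2%; log2 -0.25 ± 0.08, adjusted p = 0.164) was the lowest among the paralogs. Chd6 stood at 105, 103 and 100 CPM against 89.3, 98.3 and 94.6 CPM, or 91.8% (86.2 to 97.7%; adjusted p = 0.170). Chd9 stood at 74.4, 72.2 and 73.0 CPM against 61.7, 69.5 and 68.4 CPM, or 90.9% (84.6 to 97.6%; adjusted p = 0.176). For both genes the highest Chd8+/- library lay just under the lowest Chd8+/+ library. Without Chd8+/- replicate 1, the log2 difference moved from -0.25 to -0.16 for Chd7 and from -0.14 to -0.085 for Chd9. In subfamily I, Chd1 was at 94.3% (86.8 to 102.4%), with overlapping libraries, and Chd2 at 94.3% (88.8 to 100.1%). Chd1l was at 107% (94.2 to 121.8%) on 320 to 416 counts a library, the fewest in the family. When single libraries were left out, the log2 difference ranged from 0.068 to 0.16 for Chd1l and from -0.13 to -0.054 for Chd1. Chd1l had the highest upper bound of the 9 paralogs at P5.

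A trend with exon length was seen in Chd8+/- libraries at P5, and the sums of some marker lists were separate there. Except for Chd1l, the members have long exon sequence, from 8019 bases (Chd4) to 19093 (Chd6), at least as long as 88.3% of the genes tested, whose median was 3466.5 bases at P5. Relative to the Chd8+/+ mean, the P5 Chd8+/- libraries had slopes of -0.0377, -0.00992 and -0.0233 log2 units per doubling of exon length (replicates 1 to 3), against -0.00284 to 0.00281 in the P5 Chd8+/+ libraries. At E12.5 the slopes were -0.00875 to 0.00984 in Chd8+/+ and -0.00404 to 0.0105 in Chd8+/-, so that the slope of P5 Chd8+/- replicate 2 lay close to the E12.5 range. With an offset that removes this trend, Chd8 at P5 was still called (log2 -0.53, adjusted p = 0.000712). The same offset brought the paralog median from -0.12 to -0.03, and 1 of 9 paralogs, Chd7 (log2 -0.17), kept an unadjusted p under 0.05. Chd3 moved to -0.09 and Chd6 to -0.03, and Chd5 to 0.08. Summed markers of striatal medium spiny neurons (262 to 284 CPM in Chd8+/+ against 197 to 240 in Chd8+/-), GABAergic interneurons (438 to 455 against 353 to 424), choroid plexus (425 to 551 against 314 to 371) and intermediate progenitors (Eomes, 3.88 to 4.40 against 2.98 to 3.58) were also separate at P5, while those of the other 9 lists overlapped, and none of the listed genes was at 0 in all libraries of a stage. At E12.5, microglia (23.6 CPM in every Chd8+/+ library against 20.3 to 22.9) and endothelium (128 to 131 against 116 to 119 CPM) were separate. An unadjusted p under 0.05 was found for 0 of 4 and 1 of 3 of their genes. At P5 it was found for 6 of 6 striatal, 3 of 5 interneuron and 5 of 5 choroid plexus genes and for Eomes. Among single genes, 5.90% were separate and lower in Chd8+/- at E12.5 and 12.2% at P5. No such share was computed for sums of lists. The part of these cell types in the family's values was not tested.

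**Figure D2:**
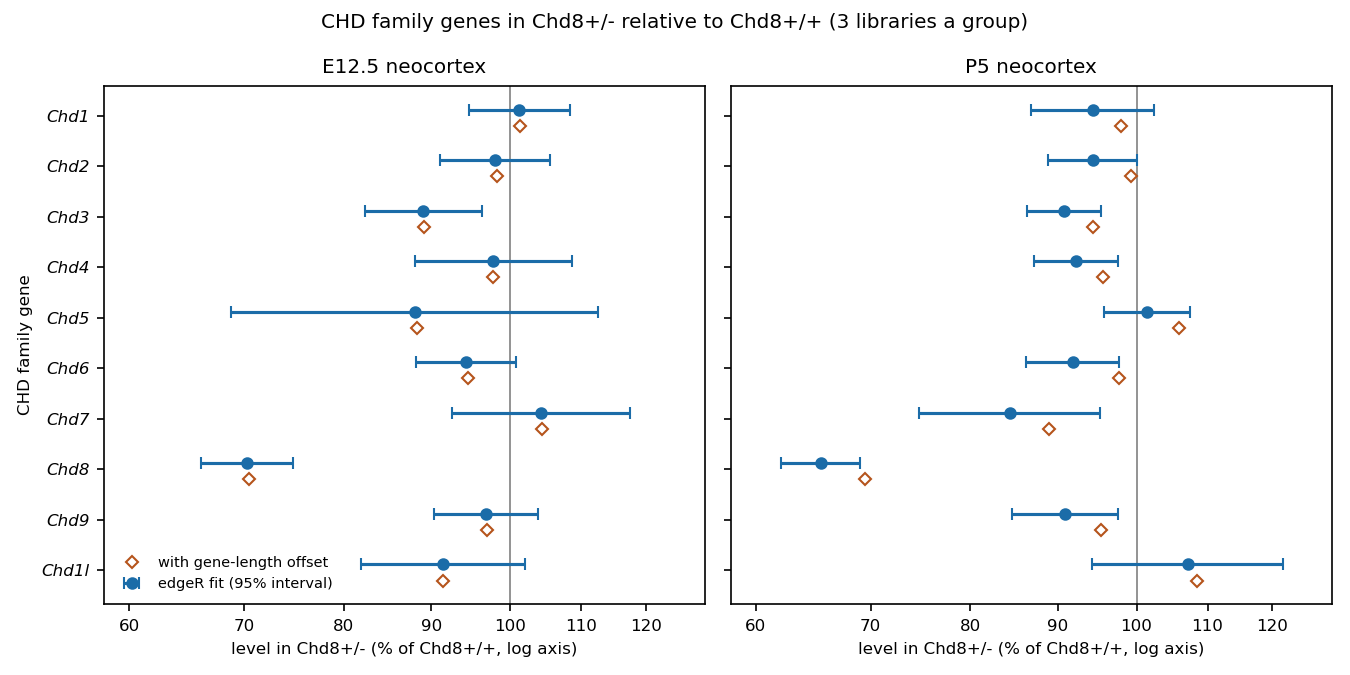
Level of each CHD family gene in Chd8+/- as a percentage of Chd8+/+ (horizontal log axis) at E12.5 and P5; filled points are edgeR estimates with 95% intervals, open diamonds the estimates with a gene-length offset. Chd8 stands at 70.3% and 65.5%, the 9 paralogs lie between 84.3% and 107%, and the diamonds lie to the right of the points at P5.

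The summed level of the paralogs was then set beside the loss of Chd8 itself. Per library, the 9 paralogs summed to 804, 725 and 801 TPM in Chd8+/+ and to 740, 755 and 710 TPM in Chd8+/- at E12.5. At P5 the sums were 672, 660 and 691 TPM in Chd8+/+ and 613, 648 and 598 TPM in Chd8+/-. The groups overlapped at E12.5, and at P5 every Chd8+/- sum was lower. The Chd8+/- mean was 94.6% of the Chd8+/+ mean at E12.5 and 91.8% at P5, a description with no test. In TPM, the paralog sum differed by -41.8 at E12.5 and -55.0 at P5, and Chd8 by -14.9 and -10.9. The E12.5 difference of the sum was -67.5 TPM without Chd8+/+ replicate 2 and -28.2 to -51.7 TPM without any other single library. With each paralog's Chd8+/+ mean multiplied by its fitted fold change, a calculation added after the data were seen, the P5 sum was 93.4% of Chd8+/+ (-44.7 TPM) without the length offset and 97.2% (-19.2 TPM) with it. The sum of the 3 closest paralogs, Chd6, Chd7 and Chd9, was 125 ± 7.12 against 123 ± 6.22 TPM at E12.5 (98.5%) and 45.9 ± 1.23 against 40.8 ± 3.06 TPM at P5 (88.8%). By fitted fold changes, this P5 sum was 90.3% of Chd8+/+ (-4.44 TPM) without the length offset and 95.4% (-2.13 TPM) with it. The mean of each sum was lower in Chd8+/- at both stages, but at E12.5 the sum of the 3 genes lay above Chd8+/+ when Chd8+/+ replicate 1 (100.5%) or Chd8+/- replicate 3 (101%) was left out. Chd8 supplied 5.93 ± 0.168% of the family's TPM in Chd8+/+ at E12.5 and 4.43 ± 0.0614% in Chd8+/-, and 4.35 ± 0.0970% and 3.09 ± 0.0351% at P5. With the longest protein-coding transcript as the length, these shares were 8.87% and 6.67% at E12.5 and 6.91% and 4.96% at P5. In Chd8+/- at P5 its libraries overlapped those of Chd9 (19.8 ± 0.943 against 19.1 ± 1.35 TPM), and with the transcript length they were separate (29.3 to 32.1 against 13.96 to 16.2 TPM). For Chd9 that transcript, from GENCODE M21, has 12008 bases, more than the 11565 exon bases counted. Its TPM on this scale therefore rests on differing annotations.

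**Figure D3:**
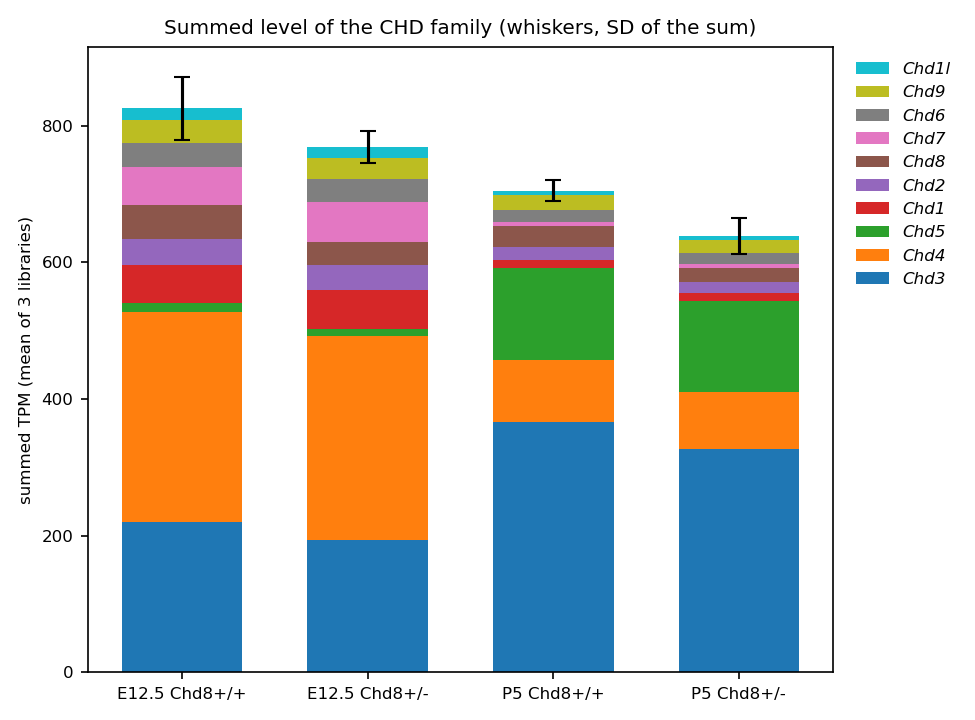
Summed TPM of the 10 CHD family genes in each group (vertical axis from 0); segments are means of 3 libraries per gene and whiskers the SD of the sum. Chd3 and Chd4 fill most of the bars at E12.5, Chd3 and Chd5 at P5, and the Chd8 segment is smaller in Chd8+/- at both stages.

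An interaction term over all 12 libraries tested whether a genotype effect was of another size at P5 than at E12.5. No member was called, and edgeR called 0 of 19676 genes (0.00%), with 1972 of them under an unadjusted p of 0.05. DESeq2 called 8 genes (0.0929%), none of them a CHD gene. The Chd8 difference was 0.12 log2 units larger at P5 in size (interaction -0.12 ± 0.05, unadjusted p = 0.0264, adjusted p = 0.452), and it was -0.02 with the length offset. Chd7 had the largest interaction among the members (-0.32 ± 0.12, unadjusted p = 0.0178, adjusted p = 0.440), and -0.23 with the offset. The interactions of the other 8 members lay between -0.12 (Chd1) and 0.21 (Chd1l), and those of Chd2 and Chd6 turned above 0 with the offset.

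Between E12.5 and P5 each of the 9 paralogs changed more than between genotypes, while the Chd8 difference between stages in Chd8+/+ (log2 -0.64) was close in size to that between genotypes at P5 (-0.61). With the length offset these Chd8 values were -0.88 and -0.53. All 10 members passed the test in Chd8+/+ and in Chd8+/-, 8 of them lower at P5 and 2, Chd5 and Chd3, higher. Since 84.0% of all genes were called in Chd8+/+ (41.7% higher and 42.3% lower) and 83.2% in Chd8+/- (41.7% and 41.5%), passing is no mark of the family. Age, the hemispheres taken and the count table change together and cannot be told apart.

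Within subfamily II the 3 alternative NuRD ATPase genes took different directions. Chd5 rose from 38.5, 42.0 and 30.6 CPM to 383, 382 and 401 CPM in Chd8+/+ (normalized over all 12 libraries), a 10.5-fold difference (log2 3.39 ± 0.10 SE, adjusted p = 9.27e-12). Only 6.75% of genes had a value this high or higher. Chd4 fell from 715, 678 and 795 CPM to 226, 223 and 217 CPM (log2 -1.72 ± 0.07, adjusted p = 1.95e-10). Chd3 rose from 558, 538 and 548 CPM to 916, 949 and 932 CPM (log2 0.77 ± 0.06, adjusted p = 7.58e-08). No library of these genes lay in the range of the other stage. In TPM, the share of the family taken by Chd4 went from 37.3 ± 1.57% at E12.5 to 13 ± 0.309% at P5, that of Chd3 from 26.6 ± 0.936% to 51.9 ± 0.525% and that of Chd5 from 1.59 ± 0.315% to 19.1 ± 0.540%. The subfamily sum moved less, from 541 ± 29.6 to 592 ± 14 TPM.

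Promoter sequences of Chd4 and Chd5 are shown because these genes moved in opposite directions with stage. They run from 250 bases before to 50 bases after an annotated start (RefSeq, GRCm38.p6, plus strand of chromosomes 6 and 4), with CG dinucleotides in capitals.
Chd4, chr6:125095731-125096030: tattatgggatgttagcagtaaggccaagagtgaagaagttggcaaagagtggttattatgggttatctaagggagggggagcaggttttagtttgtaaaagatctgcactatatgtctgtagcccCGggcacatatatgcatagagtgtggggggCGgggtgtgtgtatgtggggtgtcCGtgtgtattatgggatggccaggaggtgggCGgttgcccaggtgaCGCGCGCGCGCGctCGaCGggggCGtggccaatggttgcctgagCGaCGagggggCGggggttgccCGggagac
Chd5, chr4:152338401-152338700: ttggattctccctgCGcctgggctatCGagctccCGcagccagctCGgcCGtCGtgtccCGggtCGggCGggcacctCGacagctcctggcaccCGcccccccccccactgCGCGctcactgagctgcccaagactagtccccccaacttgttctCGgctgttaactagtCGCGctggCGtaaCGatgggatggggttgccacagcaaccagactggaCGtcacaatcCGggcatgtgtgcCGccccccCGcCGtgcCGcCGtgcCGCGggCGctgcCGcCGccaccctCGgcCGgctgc
The Chd5 window held 32 CG dinucleotides, as many as or more than 91.4% of 32851 mouse promoter windows of the same length, and the Chd4 window 17 (70.3%), against a median of 7. Each gene has another annotated start, not shown, whose window held 33 CG dinucleotides for Chd5 (92.3%) and 29 for Chd4 (88.3%). The motif CCAAT, searched on both strands, was in both Chd4 windows and in neither of Chd5, and 37.4% of all windows held it. The motif TATAAA was in none of the 9 windows found for 6 members, and 13.6% of all windows held it.

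Chd7 had the steepest fall of the family. It went from 232, 202 and 249 CPM to 27.2, 27.4 and 25.4 CPM in Chd8+/+, an 8.53-fold difference (log2 -3.09 ± 0.07, adjusted p = 1.70e-12), and 2.66% of genes had a value as low or lower. The other members of its subfamily fell less. Chd8 went from 234, 229 and 236 CPM to 151, 151 and 145 CPM (log2 -0.64 ± 0.04, adjusted p = 2.25e-08), so that P5 neocortex held 64.1% of the E12.5 level (60.1 to 68.3%). Chd9 fell by 0.58 and Chd6 by 0.96 on the log2 scale. In subfamily I, Chd1 fell by 2.16 (from 145 ± 7.24 to 32.6 ± 0.972 CPM) and Chd2 fell by 1.02 log2 units (from 144 ± 8.10 to 71.2 ± 0.990 CPM). Chd1l fell by 1.49 (from 22.3 ± 1.81 to 7.93 ± 0.300 CPM).

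The same directions were measured in Chd8+/-, where the log2 difference between stages was 3.59 for Chd5, 0.79 for Chd3, -0.68 for Chd9, -0.75 for Chd8, -1.01 for Chd6, -1.08 for Chd2, -1.27 for Chd1l, -1.81 for Chd4, -2.26 for Chd1 and -3.40 for Chd7. With the length offset, which moved the median of all genes from -0.02 to -0.25 in Chd8+/+ and from 0.0010 to -0.21 in Chd8+/-, the 10 members kept their directions and calls in both genotypes.

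**Figure D4:**
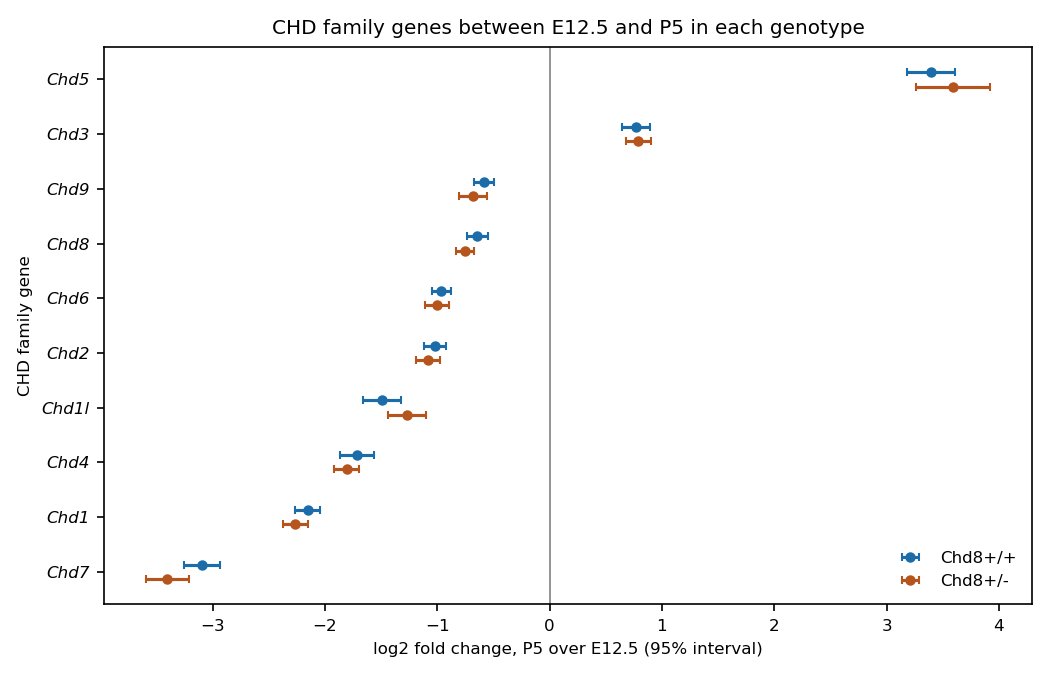
Difference between P5 and E12.5 of each CHD family gene (horizontal axis, log2 fold change with 95% interval) in Chd8+/+ and Chd8+/-, ordered by the value in Chd8+/+. Chd5 and Chd3 lie above 0 and the other 8 genes below, with Chd7 lowest at -3.09 and -3.40.

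A list of 31 genes, called partner genes for short, was also examined. It held 12 NuRD subunit genes and 11 genes for other SNF2 ATPases, the latter included as related remodelers. The other 8 encode proteins that bind CHD8 or CHD7 or form the core of histone H3 lysine 4 methyltransferases. Between genotypes, 0 of 31 passed edgeR's test at either stage. At E12.5, 2 had an unadjusted p under 0.05, both lower, beside 5.15% of all genes in either direction, and DESeq2 called 0 of the list and 0.0373% of the genes it tested. The smallest p-values belonged to Mta3, a NuRD subunit gene (29.6 ± 0.822 against 26.9 ± 0.796 CPM, log2 -0.14), Cdk2ap1, another NuRD subunit gene (log2 -0.13), and Trp53, which encodes the tumour suppressor p53 (log2 -0.12), each with an adjusted p of 0.942. The list's median was 0.0089.

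At P5, 12 of 31 were lower and 3 higher at an unadjusted p under 0.05, beside 17.8% of all genes in either direction and 9.77% lower. The list's median was -0.05. The 3 smallest p-values were those of SNF2 ATPase genes. Atrx, whose product deposits histone H3.3 with DAXX, stood at 336, 342 and 323 CPM in Chd8+/+ and at 257, 288 and 292 CPM in Chd8+/- (log2 -0.26 ± 0.05, edgeR adjusted p = 0.0950). Smarca1, an ISWI remodeler gene, stood at 73.6, 76.5 and 73.2 CPM against 64.0, 67.0 and 66.8 CPM (log2 -0.17 ± 0.04, adjusted p = 0.0973). Smarcad1 stood at 56.5, 60.2 and 56.6 CPM against 49.1, 51.2 and 50.9 CPM (log2 -0.20 ± 0.04, adjusted p = 0.0994). All 3 were lower in every Chd8+/- library. DESeq2 called 5 of the 31, namely these 3 with Ctnnb1 and Btaf1, beside 5.22% of the genes it tested, and the length offset left Atrx at -0.17, Smarca1 at -0.14 and Smarcad1 at -0.12. With that offset, 10 of 31 had an unadjusted p under 0.05 in edgeR's test in either direction, beside 2862 of 18666 genes. The list's median was then -0.03.

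For the interaction, 0 of 31 were called by edgeR or by DESeq2, with 10 values below 0 and 2 above at an unadjusted p under 0.05, beside 1972 of 19676 genes in either direction. The smallest p-values were those of Smarcad1 (-0.23 ± 0.06, unadjusted p = 0.00110, adjusted p = 0.362), Atrx (-0.25, adjusted p = 0.375) and Cdk2ap1 (0.24, adjusted p = 0.425), and with the length offset the values were -0.14, -0.14 and 0.24. With that offset, 2 of 31 had an unadjusted p under 0.05 in edgeR's test, beside 1608 of 19676 genes. The list's median interaction moved from -0.05 to -0.02.

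Between stages in Chd8+/+, 28 of 31 were called lower at P5, beside 42.3% of all genes, and 3 higher, beside 41.7%, and the list's median was -1.05 beside -0.02 over all genes. Those higher were the SNF2 ATPase genes Smarca2 (log2 1.46) and Smarca1 (0.66) and the NuRD subunit gene Mta3 (0.79). Hells, which encodes a remodeler of proliferating cells that acts in DNA methylation, had the steepest fall of the list (log2 -4.33 ± 0.06, adjusted p = 4.02e-14). Among the other SNF2 ATPase genes, the log2 difference was -2.61 for Smarca5, -1.73 for Smarcad1, -1.10 for Ep400, -1.05 for Srcap, -1.05 for Smarca4, -0.95 for Btaf1, -0.41 for Ino80 and -0.40 for Atrx. The NuRD subunit genes that fell included the deacetylase genes Hdac1 (-2.13) and Hdac2 (-1.12), the histone-binding Rbbp4 (-1.58) and Rbbp7 (-0.43), and the methyl-CpG-binding domain genes Mbd3 (-0.78) and Mbd2 (-0.61). Their other members stood at -2.52 (Cdk2ap1), -1.75 (Gatad2a), -1.34 (Mta2), -0.86 (Mta1) and -0.49 (Gatad2b). Of the binding partners and methyltransferase core genes, Trp53 (-2.16) and Zfp143 (-2.04) fell most, followed by Ctcf (-1.33), Rbbp5 (-1.20), Dpy30 (-0.98), Ctnnb1 (-0.84), Ash2l (-0.84) and Wdr5 (-0.68). In Chd8+/-, all 31 were called in these directions, 28 lower beside 41.5% of all genes and 3 higher beside 41.7%, with a median of -1.12. The smallest p-values there were those of Hells (-4.48), Smarcad1 (-1.94) and Smarca5 (-2.83). The length offset turned no direction in either genotype.

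Likeness to Chd8 was described over the 12 libraries as Pearson's r of log2 CPM among 17146 genes tested at both stages. With each stage's mean subtracted, which leaves mainly the genotype groups and the spread within them, the highest values were those of Usp11, a deubiquitinase gene (r = 0.943), the paralog Chd3 (0.939), Tert, the telomerase catalytic subunit gene (0.932), Srp72, a signal recognition particle gene (0.931), and Hexim1, an inhibitor of elongation factor P-TEFb (0.928). Among the other paralogs, r was 0.833 for Chd6, 0.698 for Chd9, 0.619 for Chd4, 0.586 for Chd2, 0.455 for Chd7, 0.425 for Chd1, 0.192 for Chd5 and 0.0887 for Chd1l. Without subtraction, Col4a2 (0.969), Usp11 (0.966), Srp72 (0.953), Ets1 (0.949) and Acvrl1 (0.942) led, while Chd3 and Chd5, which rose with stage, had r of -0.629 and -0.759. All points share the libraries and their depth, and the ranking of so many genes favours high values. The P5 trend with exon length was not removed from these values. How many of all genes reach the r of the other paralogs was not examined.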

How the data were processed

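Messenger RNA of 12 neocortex libraries was sequenced paired-end. The authors trimmed reads with Trim Galore 0.4.1, aligned them to GRCm38 with TopHat2 2.1.0 and counted them per Ensembl gene with featureCounts 1.5.0; the deposited values are raw counts, in 1 table per stage with 2 runs per library. Runs differed by little more than counting noise (chi-square per degree of freedom 1.18 to 1.54, against 7.09 to 49.7 between libraries of a group) and were summed. Members, lists and tests were chosen with earlier results of these data known. Counts were tested with edgeR 4.0.16 (quasi-likelihood F-test, TMM, filterByExpr, Benjamini-Hochberg adjustment over all genes, threshold 0.05), each stage fitted alone for genotype, each genotype alone for stage, and all 12 libraries for the interaction. CPM are TMM-scaled. TPM used the deposited merged exon lengths. Analyses used R 4.3.3, limma 3.58.1 and DESeq2 1.42.0. The length offset was a loess curve (span 0.5) on exon length, fitted for each library. It was fitted to the deviations of log2 CPM from each gene's mean over the libraries of the fit. All 10 members were named, with partner genes that passed or had the 3 smallest p-values per comparison, the 5 genes most like Chd8 by each measure, and overlapping genes. One gene of the neocortical identity markers is not reported here and was left out of that list's sum. Fits were tested on simulated counts. Alternatives were other normalizations, filters and tools, a replicate block, the first run alone, all libraries in 1 model, a threshold of 0.1, and each library left out.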

Additional observations from a re-analysis of the deposited data

How the results depend on the processing

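The Chd8 difference kept its direction in every alternative fit at both stages. With a replicate block, the E12.5 value was -0.51 with an adjusted p of 0.346, and leaving out single libraries gave -0.52 to -0.50 with adjusted p from 0.00502 to 0.141. The replicate numbers are not known to pair libraries: the correlation of deviations from group means of same-numbered libraries was -0.329, -0.150 and -0.190 at E12.5 and 0.297, 0.0870 and 0.0169 at P5, and not every library correlated best with its own number. The block changed the count of genes called from 1 to 0 at E12.5 and from 1 to 4 at P5. Over all genes, edgeR called 1 at E12.5 and 1 at P5, DESeq2 5 and 651, and edgeR on all genes with at least 1 count 13 and 995. At P5 the number of paralogs called was 1 by DESeq2 and 2 with all genes of at least 1 count, and the number of partner genes called was 5 in each of these, 3 at a threshold of 0.1, and 0 to 1 when single libraries were left out (1 without Chd8+/- replicate 2). Without single libraries, the E12.5 genotype values ranged from -0.017 to 0.038 for Chd1, -0.067 to 0.0021 for Chd2, -0.077 to 0.0325 for Chd4, -0.33 to -0.026 for Chd5 and -0.014 to 0.13 for Chd7. The interaction then ranged from -0.0011 to 0.062 for Chd3, -0.16 to -0.038 for Chd4 and 0.040 to 0.35 for Chd5. It ranged from -0.16 to -0.067 for Chd1, -0.11 to -0.017 for Chd2, -0.089 to -0.016 for Chd6 and -0.14 to -0.053 for Chd9. With the length offset, the interaction was 0.015 for Chd2 and 0.045 for Chd6. The paralog sum at P5 moved from 91.8% to 97.2% of Chd8+/+ with fitted fold changes and the length offset, added after the data were seen. In the other alternatives run for it on all libraries (TMM-scaled CPM, the first run alone, transcript length, fitted fold changes without the offset), and in all of these fits at E12.5, it moved by less than 1 SD. With single libraries left out, the sum was 89.75 to 93.45% of Chd8+/+ at P5. At E12.5 it was then 91.6% (without Chd8+/+ replicate 2) to 96.3% (without Chd8+/+ replicate 1).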
